A study of Mus musculus with 26 samples.

Results

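The 9 genes described here are the CXC chemokine ligands Cxcl1, Cxcl2, Cxcl3, Cxcl9, Cxcl10, Cxcl11, Cxcl13, Cxcl16 and Pf4. They were chosen by gene symbol and make up 9 of the 23420 symbols in the expression table. RNA had been sequenced from antigen-presenting cells sorted from mice labelled mTORΔAPC, called KO below, and from wild-type littermates, called WT. The 10 groups were CD8a dendritic cells (DCs) and CD11b DCs from the spleen (2 libraries per genotype each), and CD11b DCs, alveolar macrophages and inflammatory DCs from the lung (3 libraries per genotype each). All groups came from untreated mice at steady state except the inflammatory DCs, which came from mice given 25 µL of house dust mite extract at 1 mg/mL into the nose 3 times a week and labelled as day 17, against 18 days in the protocol. House dust mite extract is an allergen that inflames the airways. The labels place the deletion of mTOR, a kinase that couples nutrients and growth signals to metabolism and translation, in antigen-presenting cells. They give neither the allele, the promoter that drives the deletion nor the ages of the mice. They also do not say whether the libraries of a group came from separate mice, so p-values measure the spread between these libraries, which may be technical.

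CXC chemokines are small secreted proteins that steer leukocytes through G protein-coupled receptors. Cxcl1, Cxcl2 and Cxcl3 act on Cxcr2 and draw neutrophils; in macrophages and DCs their transcription depends on NF-kB, and their short-lived messenger RNAs are cleared through AU-rich elements bound by the Zfp36 proteins. Cxcl9, Cxcl10 and Cxcl11 are induced by interferons through the interferon regulatory factors, and draw effector T cells and natural killer cells through Cxcr3. Cxcl13 guides B cells through Cxcr5, Cxcl16 is a membrane-anchored ligand of Cxcr6 that the protease Adam10 sheds, and Pf4, platelet factor 4, is best known from platelet granules but is also made by macrophages.

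The promoter stretches shown are those of the neutrophil attractants and of Cxcl10, the members whose analysed promoter held a match to a motif searched below. On GRCm38 (mm10), Pf4, Cxcl3, Cxcl1 and Cxcl2 lie on the plus strand of chromosome 5 within 133.5 kb. Cxcl9, Cxcl10 and Cxcl11 lie on its minus strand within 44.1 kb, Cxcl13 (chr5:95956951-95961068) stands apart on the plus strand, and Cxcl16 lies on the minus strand of chromosome 11 (chr11:70453983-70459984). Of the 9 genes, 7 had a RefSeq promoter (GRCm38.p6, from 250 bases before to 50 bases after the start), and those of Cxcl11 and Cxcl16 were not analysed here. The stretches below come from chr5:90891135-90891224, chr5:90903789-90903878 and chr5:90785991-90786080 on the plus strand and from chr5:92348970-92349119 on the minus strand, in that order, each written 5′ to 3′. Capitals mark the letters that matched the NF-kB consensus on either strand and, in Cxcl10 alone, first the core of the interferon-stimulated response element (GAAA, any 2 bases, GAAA).
Cxcl1: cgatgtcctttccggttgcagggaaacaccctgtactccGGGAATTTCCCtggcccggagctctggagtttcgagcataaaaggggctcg
Cxcl2: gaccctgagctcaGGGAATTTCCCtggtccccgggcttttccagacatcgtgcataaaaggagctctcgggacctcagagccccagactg
Cxcl3: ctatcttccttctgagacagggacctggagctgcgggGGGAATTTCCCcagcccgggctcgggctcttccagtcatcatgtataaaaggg
Cxcl10: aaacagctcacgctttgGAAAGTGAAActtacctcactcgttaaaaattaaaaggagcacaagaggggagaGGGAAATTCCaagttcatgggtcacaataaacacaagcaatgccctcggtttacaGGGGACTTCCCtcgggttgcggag
The same run, GGGAATTTCCC, lay 71, 97 and 73 bases before the starts of Cxcl1, Cxcl2 and Cxcl3. In Cxcl10 the interferon element core began 213 bases before the start and the NF-kB matches 159 and 104 bases before it. Of 32851 mouse promoter windows of the same length, searched on both strands, 8.46% held the NF-kB consensus, 3.44% the interferon element core and 8.30% the STAT element TTCNNNGAA, for which none of the 7 windows held a match. The windows of Cxcl9, Cxcl13 and Pf4 held no match to any of these motifs. A match is a description of the letters and not a site.

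The members also differed in sequence outside the promoters. The motif ATTTA, the core of AU-rich elements, occurred 7 times in the 592 bases of the Cxcl1 3′ UTR, 11 times in the 734 bases of Cxcl2 and 5 times in the 645 bases of Cxcl3. Of 19477 genes, 0.524%, 0.241% and 2.33% had a 3′ UTR in which the motif was as dense. The interferon-induced ligands held 3 (Cxcl9), 2 (Cxcl10) and 1 (Cxcl11) in 3′ UTRs of 2452, 729 and 1218 bases, densities reached by 51.8%, 25.9% and 59.9% of genes. The coding sequences of Cxcl2 and Cxcl3 were 89.8% identical and shared an exact run of 110 bases, so the split of reads between these 2 genes is uncertain. Identity with Cxcl1 was 78.7% for Cxcl2 and 75.6% for Cxcl3, and the longest exact run shared with either was 23 bases. The annotation classes Cxcl11 as a polymorphic pseudogene.

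The libraries held 7.37 to 14.1 M counted reads and 12992 to 14407 genes above 0. Values are the deposited DESeq2-normalized counts. Log2 fold changes are on the scale log2(normalized count + 1) and were tested with limma over 13311 genes, with Benjamini-Hochberg adjusted p under 0.05 as the threshold. Mtor itself was lower in every KO library than in every WT library of its cell type, with log2 differences of -2.93 in spleen CD8a DCs, -2.36 in spleen CD11b DCs, -2.02 in alveolar macrophages, -0.70 in lung CD11b DCs and -0.74 in inflammatory DCs. The difference in inflammatory DCs did not pass (limma adjusted p = 0.0668). Defining markers fitted the labels with exceptions. WT spleen CD8a DCs carried red pulp macrophage genes (7 markers, summed level 30622 to 53111, against 4106 to 4605 in KO), and the 11 alveolar macrophage markers were highest in inflammatory DCs (419492 to 1157040), where Chi3l3 led them and the DC genes Zbtb46 and Flt3 were low. Y-linked genes summed to at most 2.28 in every steady-state WT library and to 660 to 3295 in the steady-state KO libraries except lung CD11b KO replicates 2 and 3, so sex and genotype cannot be told apart in the spleen and in alveolar macrophages. In sorted bulk RNA, fewer cells of a type and less RNA per cell cannot be told apart.

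**Figure D1:**
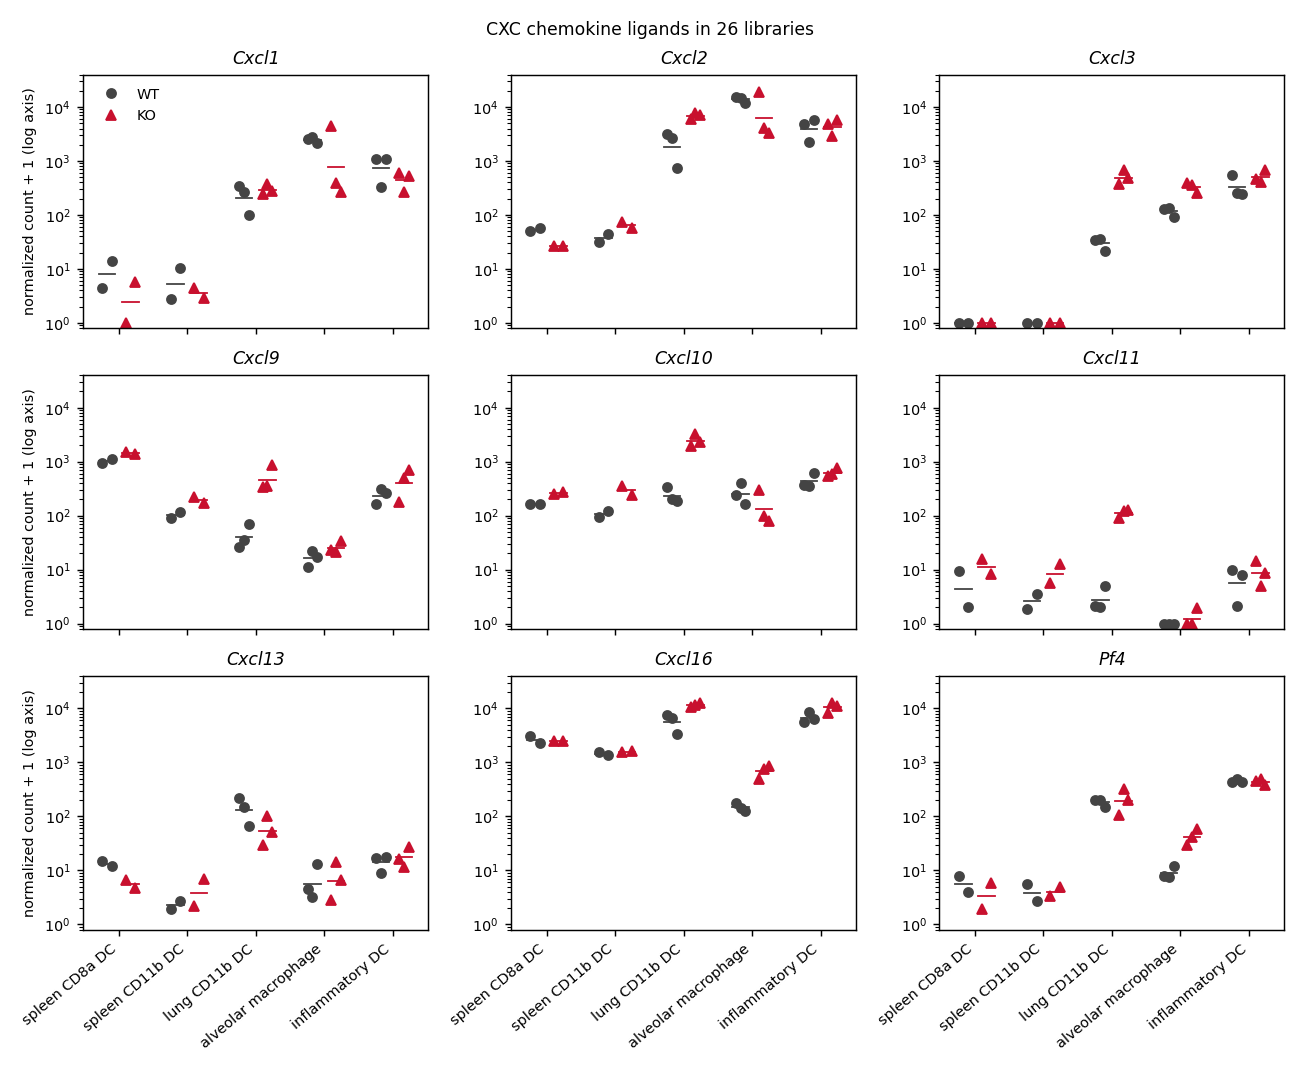
Normalized count of each of the 9 CXC ligand genes (vertical axis, log scale of count + 1) in the 26 libraries, arranged by cell type, with circles for WT, triangles for KO and bars at the geometric mean of count + 1. Cxcl1, Cxcl2 and Cxcl3 were each higher in every lung library than in every spleen library, Cxcl9 was highest in spleen CD8a DCs, and Cxcl11 stood apart in KO lung CD11b DCs.

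In WT cells the neutrophil attractants were genes of the lung. Cxcl2 measured 49.7 and 55.8 normalized counts in spleen CD8a DCs and 30.5 and 44.0 in spleen CD11b DCs. In lung CD11b DCs it measured 3176, 2653 and 751, in inflammatory DCs 4829, 2284 and 5683, and in alveolar macrophages 15221, 14994 and 11940.2. The spleen, the lung DC populations and the alveolar macrophages did not overlap with one another, while both lung DC populations overlapped. Cxcl1 followed the same order at lower values, with 3.43 to 13.2 in WT spleen CD8a and 1.79 to 9.31 in WT spleen CD11b libraries, 98.3 to 349 in lung CD11b DCs and 2182 to 2800.4 in alveolar macrophages. Cxcl3 was at 0 reads in all 8 spleen libraries of both genotypes. In WT it measured 20.2 to 34.9 in lung CD11b DCs, 91.1 to 131 in alveolar macrophages and 244 to 549 in inflammatory DCs, and these ranges did not overlap. Set against a floor of 3 counts in each WT spleen CD11b library, Cxcl3 was at least 11.3-fold higher in WT lung CD11b DCs, at least 44.9-fold higher in alveolar macrophages and at least 133-fold higher in inflammatory DCs.

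The interferon-induced ligands had a different order, led by the spleen for Cxcl9. Cxcl9 measured 964 and 1103 in WT spleen CD8a DCs against 87.9 and 115 in WT spleen CD11b DCs, a log2 difference of 3.34 ± 0.53 (SE; limma adjusted p = 4.17e-05). It was lower in WT alveolar macrophages (10.3, 21.0 and 16.3) than in every other WT group. Cxcl10 varied less, with group means between 107 ± 19.0 (SD, n = 2) in spleen CD11b DCs and 445 ± 143 (SD, n = 3) in inflammatory DCs. Cxcl11 was near 0 in WT, from 0 reads in all 3 alveolar macrophage libraries to at most 8.89 in any library. At 0 to 10 reads per WT library, limma called no WT difference (alveolar macrophages minus lung CD11b DCs -1.48, adjusted p = 0.0675), whereas edgeR (0.0366) and DESeq2 (0.0415) called that 1 lower in alveolar macrophages.

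Comparing spleen populations, which differ in their cross-presenting (CD8a) and CD4 T cell priming (CD11b) roles, 3 of the 9 genes were higher in WT CD8a DCs and 0 lower, where 12.2% of all genes tested were higher and 10.8% lower. Besides Cxcl9, these were Cxcl16 (log2 difference 0.85 ± 0.28, limma adjusted p = 0.0323) and Cxcl13 (2.56 ± 0.81, limma adjusted p = 0.0237). Cxcl16 measured 3014 and 2277 against 1570.2 and 1350.0, without overlap. The Cxcl13 call rested on 27 reads against 3, a ratio of 9.59 (95% interval 2.95 to 49.4, counting error only). It was lost without any 1 of the 4 libraries (2.31 to 2.82, limma adjusted p 0.0621 to 0.134). The Cxcl16 call was lost without CD8a replicate 1 (0.64, adjusted p = 0.223), CD11b replicate 1 (0.96, 0.0706) or CD11b replicate 2 (0.74, 0.176). The red pulp macrophage genes noted above moved with this comparison, at 30622 to 53111 in WT CD8a and 5180 to 5689 in WT CD11b libraries, and their part in it was not tested.

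Between organs, 7 of the 9 genes were higher and 1 lower in WT lung than in WT spleen CD11b DCs, where 21.1% of all genes were higher and 13.8% lower. Among the rises were those of Cxcl13 (5.83 ± 0.74 on the log2 scale, limma adjusted p = 1.26e-06), Cxcl2 (5.62 ± 0.56, 3.00e-08), Pf4 (5.58 ± 0.49, 4.16e-09) and Cxcl1 (5.29, 5.69e-05). Pf4 measured 202, 199.8 and 151 in the lung against 4.49 and 1.69 in the spleen, and Cxcl13 218, 145 and 66.1 against 0.897 and 1.69. Neither gene overlapped between organs. Cxcl16 rose by 1.92 ± 0.26 (limma adjusted p = 2.80e-06), and Cxcl3 was called from a spleen level of 0. Cxcl10 was higher (1.13 ± 0.41, limma adjusted p = 0.0367) and Cxcl9 lower (-1.34 ± 0.48, 0.0328) by margins that single libraries decided. The Cxcl10 call was lost without lung replicate 1 (0.87, limma adjusted p = 0.146) or spleen replicate 1 (0.95, 0.206) or 2 (1.31, 0.0806), and the Cxcl9 call without lung replicate 1 (-1.03, 0.135) or 2 (-1.24, 0.0822) or spleen replicate 1 (-1.54, 0.0728) or 2 (-1.15, 0.197). The platelet list, with Pf4 left out, summed to 112 to 188 normalized counts in WT lung and 258 to 286 in WT spleen CD11b DCs, the opposite direction to Pf4.

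Within the WT lung, alveolar macrophages had more of all 3 neutrophil attractants than CD11b DCs and less of 4 other ligands, with 24% of all genes higher and 27.2% lower. Cxcl1 was higher by 3.57 (limma adjusted p = 0.000627), Cxcl2 by 2.92 (3.14e-05) and Cxcl3 by 1.98 (5.26e-05) on the log2 scale. Cxcl16 fell by 5.23 ± 0.23 (limma adjusted p = 6.05e-15), from 7530.3, 6598 and 3406 in CD11b DCs to 178, 142 and 123 in alveolar macrophages. Pf4 fell by 4.36 (1.34e-08), Cxcl13 by 4.50 (4.28e-06) and Cxcl9 by 1.30 (limma adjusted p = 0.0140). The Cxcl9 call was lost without alveolar macrophage replicate 1 (-1.04, adjusted p = 0.0781) or lung CD11b replicate 3 (-0.89, 0.107). Inflammatory DCs of treated WT mice, set against the steady-state CD11b DCs, were higher in Cxcl3 (3.45, limma adjusted p = 3.08e-08), Cxcl9 (2.56, 3.26e-05) and Pf4 (1.28, 0.0195) and lower in Cxcl13 (-3.20, 0.000347), with 23.7% of all genes higher and 23.8% lower. Here treatment and cell type differ together, and so do the Y-linked genes, which were on in all inflammatory DC libraries (1420 to 2523 in WT). The Pf4 call was lost without lung CD11b replicate 3 (1.15, adjusted p = 0.0651) or inflammatory DC replicate 2 (1.22, 0.0590). Cxcl1 (1.79), Cxcl2 (1.1) and Cxcl10 (0.89) were not called, but without inflammatory DC replicate 2 Cxcl1 (2.36, adjusted p = 0.0334) and Cxcl2 (1.5, 0.0285) were, and without lung CD11b replicate 1 Cxcl2 (1.49, 0.0294) and Cxcl10 (1.15, 0.0249). These comparisons share the WT lung CD11b libraries. Of these, replicate 3 was the lowest in Cxcl1, Cxcl2, Cxcl3, Cxcl10, Cxcl13, Cxcl16 and Pf4 and the highest in Cxcl9 and Cxcl11.

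In lung CD11b DCs 6 of the 9 ligands were higher and 0 lower in KO than in WT, with 12% of all genes higher and 14% lower. The same 6 did not overlap between genotypes, as did 28.6% of all genes. They were 2 of the neutrophil attractants, all 3 Cxcr3 ligands and Cxcl16. The median log2 difference of the 9 genes was 1.89, beside -0.05 over all genes tested.

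Among the neutrophil attractants, Cxcl3 measured 33.6, 34.9 and 20.2 normalized counts in WT and 372, 678 and 476 in KO. Every KO library was more than 10 times above every WT library. The log2 difference was 4.06 ± 0.35 (limma adjusted p = 1.60e-08), the means being 17.2-fold apart. Cxcl2 measured 3176, 2653 and 751 in WT and 5998, 7607 and 7098 in KO. WT replicate 3 lay far below the other WT libraries, and all 3 KO libraries above them. Cxcl2 rose by 1.89 ± 0.50 (limma adjusted p = 0.00691). Without WT replicate 3 the difference was 1.24 and was not called (adjusted p = 0.0618, range over the alternatives 0.00363 to 0.147). Cxcl1, which shares the receptor, measured 349, 265 and 98.3 in WT and 246, 369 and 277 in KO. Its groups overlapped, and the difference was 0.49 ± 0.80 (95% interval -1.17 to 2.14).

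All 3 interferon-induced ligands rose. Cxcl10 measured 335, 205 and 183 in WT and 1938, 3258 and 2291 in KO, and it rose by 3.38 ± 0.37 (limma adjusted p = 4.52e-07). Its KO mean of 2496 ± 683 (SD, n = 3) was the highest of all 10 groups, with no overlap with the next, KO inflammatory DCs at 624 ± 115 (SD, n = 3). Cxcl9 measured 24.9, 33.8 and 70.1 in WT and 337, 347 and 856 in KO. It rose by 3.54 ± 0.43 (limma adjusted p = 1.92e-06) but stayed below WT spleen CD8a DCs. Cxcl11 measured 1.08, 1.06 and 4.03 in WT and 90.1, 119 and 126 in KO. No other group of the study had a Cxcl11 value above 14.9. With 425 reads against 7 the ratio was 50.6 (95% interval 24.3 to 127, counting error only), and the log2 difference of 5.33 ± 0.66 passed (limma adjusted p = 2.74e-06). Art3, which overlaps Cxcl10 and Cxcl11 on the other strand, measured at most 20.3 in these libraries.

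Of the remaining ligands, Cxcl16 rose and Cxcl13 and Pf4 were not called. Cxcl16 measured 7530.3, 6598 and 3406 in WT and 10739, 11764 and 12547 in KO, a rise of 1.08 ± 0.23 (limma adjusted p = 0.00133). Leaving out any 1 library kept this call. Zmynd15, which overlaps Cxcl16 on the other strand, measured 316, 335 and 197 in WT and 806, 1171 and 1415 in KO. Whether reads were counted by strand was not stated, so those of the overlap cannot be told apart. Cxcl13 measured 218, 145 and 66.1 in WT and 28.1, 99.3 and 50.6 in KO, which overlapped (-1.28 ± 0.66, 95% interval -2.65 to 0.09). Pf4 measured 202, 199.8 and 151 in WT and 106, 326 and 197 in KO, with KO libraries on either side of WT (0.05 ± 0.44, 95% interval -0.86 to 0.96).

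Other values moved with genotype in lung CD11b DCs. WT replicate 3 and KO replicates 2 and 3 had fewer genes above 0 (12992 to 13173) than the other 3 libraries (13876 to 14407). A term for these libraries, chosen after seeing the data, left 6 ligands called, with log2 differences of 2.17 for Cxcl2, 4.08 for Cxcl3, 3.22 for Cxcl9, 3.39 for Cxcl10, 5.04 for Cxcl11 and 1.22 for Cxcl16. Within the libraries with more genes (1 KO and 2 WT), KO minus WT was 3.40 for Cxcl3, 3.49 for Cxcl9, 2.88 for Cxcl10 and 5.46 for Cxcl11. Within those with fewer (2 KO and 1 WT) it was 4.75, 2.94, 3.89 and 4.62. Each set thus holds a single library of 1 genotype, so these values have no spread on that side. The other called ligands differed more between these sets, Cxcl2 at 1.05 and 3.29 and Cxcl16 at 0.61 and 1.83. Those not called changed sign, Cxcl1 from -0.31 to 1.69, Cxcl13 from -2.62 to 0.10 and Pf4 from -0.92 to 0.75. KO replicate 1 was the only Y-positive library of this cell type, and without it all 6 stayed called, Cxcl3 at 4.26 and Cxcl10 at 3.55. The 9 markers of CD11b-type DCs summed to 57074 to 63738 in WT and 20562 to 29141 in KO, and the 13 monocyte and macrophage markers to 95119 to 102925 and 101798 to 144146. Neutrophil markers summed to 528 to 1029 in WT and 880 to 1596 in KO. Of these markers, 1 of 8 tested was called (Mmp8, higher), where 12% of all genes were higher. The part of these cells in the ligand differences was not tested.

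**Figure D2:**
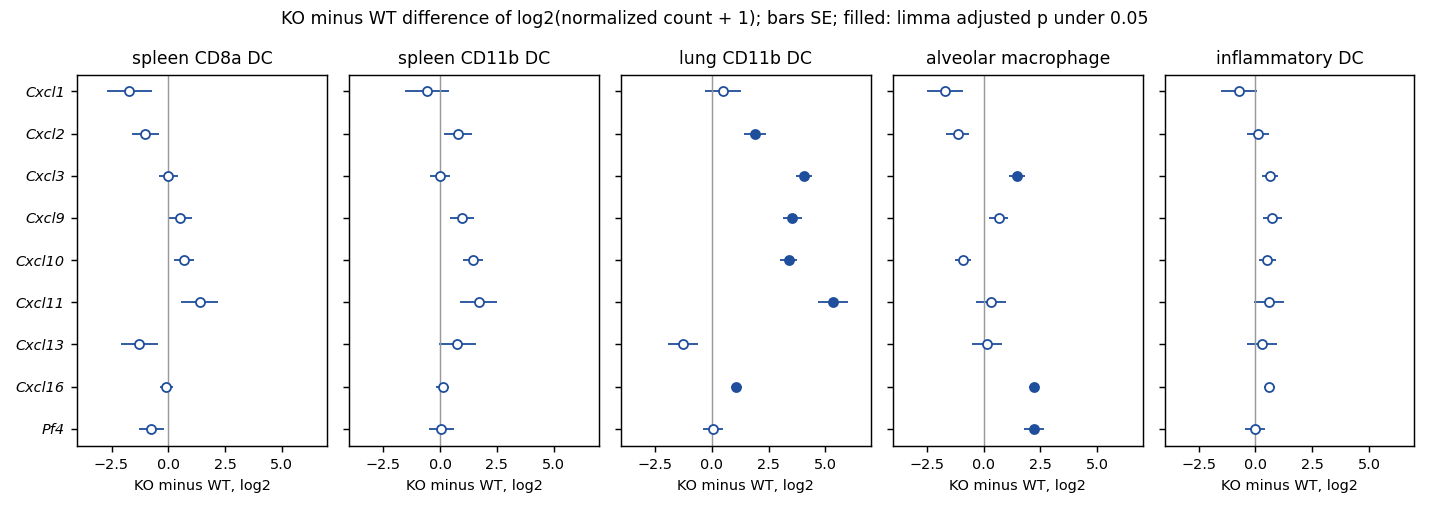
KO minus WT difference of each ligand (horizontal axis, log2 of normalized count + 1, with bars of 1 standard error) in the 5 cell types, where filled symbols passed limma's adjusted p of 0.05. Filled symbols appear only in lung CD11b DCs (6 genes) and alveolar macrophages (Cxcl3, Cxcl16 and Pf4), all of them above 0; Cxcl3 had no reads in the spleen, where its bars show only the spread pooled over all groups.

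In alveolar macrophages, where sex and genotype cannot be told apart, 3 of the 9 ligands were higher and 0 lower in KO. Among all genes, 10.5% were higher and 6.39% lower. The 3 ligands were Cxcl3 and Cxcl16, which were also higher in KO lung CD11b DCs, and Pf4. These 3 genes were also the ones without overlap, as were 44.6% of all genes. The median over the 9 was 0.31, beside 0.02 over all genes. Cxcl16 measured 178, 142 and 123 in WT and 501, 737 and 850.5 in KO, a rise of 2.21 ± 0.23 (limma adjusted p = 2.15e-07). It stayed below the other 4 cell types of either genotype. Pf4 measured 6.85, 6.62 and 10.8 in WT and 28.3, 41.2 and 57.6 in KO and rose by 2.23 ± 0.44 (limma adjusted p = 0.000726). Cxcl3 measured 130, 131 and 91.1 in WT and 382, 357 and 258 in KO, a rise of 1.49 ± 0.35 (limma adjusted p = 0.00382). These calls held under each of the 15 alternatives run. The platelet list without Pf4 summed to 215 to 219 in WT and 258 to 325 in KO, with 1 of 6 tested markers higher. Zmynd15 was low here, with WT values of 7.99, 11.0 and 11.9 and KO values of 14.2, 28.7 and 48.4.

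The other neutrophil attractants split the KO libraries of alveolar macrophages. Cxcl1 measured 2556, 2800.4 and 2182 in WT and 4375, 388 and 268 in KO. Cxcl2 measured 15221, 14994 and 11940.2 in WT and 19227, 4067 and 3233 in KO. For both genes KO replicate 1 was above every WT library and replicates 2 and 3 were below every WT library. Cxcl10 measured 239, 403 and 166 in WT and 298, 99.5 and 79.5 in KO, where replicate 1 lay inside the WT range and the other 2 below it. Over all libraries none was called: Cxcl1 differed by -1.70 (95% interval -3.35 to -0.04, limma adjusted p = 0.168), Cxcl2 by -1.14 (-2.18 to -0.11, 0.131) and Cxcl10 by -0.91 (-1.68 to -0.15, 0.0983). Without WT replicate 3, Cxcl10 was called lower (-1.21, limma adjusted p = 0.0468). Without KO replicate 1, all 3 were called lower, Cxcl1 by 2.95 on the log2 scale (limma adjusted p = 0.00460), Cxcl2 by 1.95 (0.00226) and Cxcl10 by 1.49 (0.00199). Over the alternatives run, adjusted p ranged from 0.00460 to 0.746, 0.00149 to 0.511 and 0.00199 to 0.442.

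Some genes of the NF-kB response, chosen after their values were seen, divided the KO libraries in the same way. Of the 30 genes of the NF-kB, Toll-like receptor and IL-1 list, 6 had KO replicate 1 above and the other KO libraries below every WT library, while 10 had all KO libraries below WT and 6 had all of them above. The split was counted in this list alone. Its share over all genes was not obtained, so it cannot be called particular to these genes. Nfkbia, the inhibitor that NF-kB itself induces, measured 13615, 15205 and 12169 in WT and 15696, 2427 and 2382 in KO. Nfkbiz, an NF-kB cofactor, measured 3265, 3768 and 2625 in WT and 5419, 696 and 678 in KO. Tnf, a cytokine gene, measured 3073, 3814 and 2587 in WT and 6315, 581 and 380.0 in KO. For each, KO replicate 1 was above all WT libraries and the other KO libraries below them. In Tnfaip3, a brake on NF-kB, and Zfp36, which destabilizes AU-rich messenger RNAs, KO replicate 1 (12223 and 16500.3) lay within the WT range and replicates 2 and 3 (3606 to 3735 and 5660 to 5737) below it. Cxcl3, Cxcl16 and Pf4 did not follow this split and were above WT in all 3 KO libraries. No label sets KO replicate 1 apart, and all 3 KO libraries were Y-positive and low in Mtor (71.7 to 104, against 332 to 387 in WT).

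**Figure D3:**
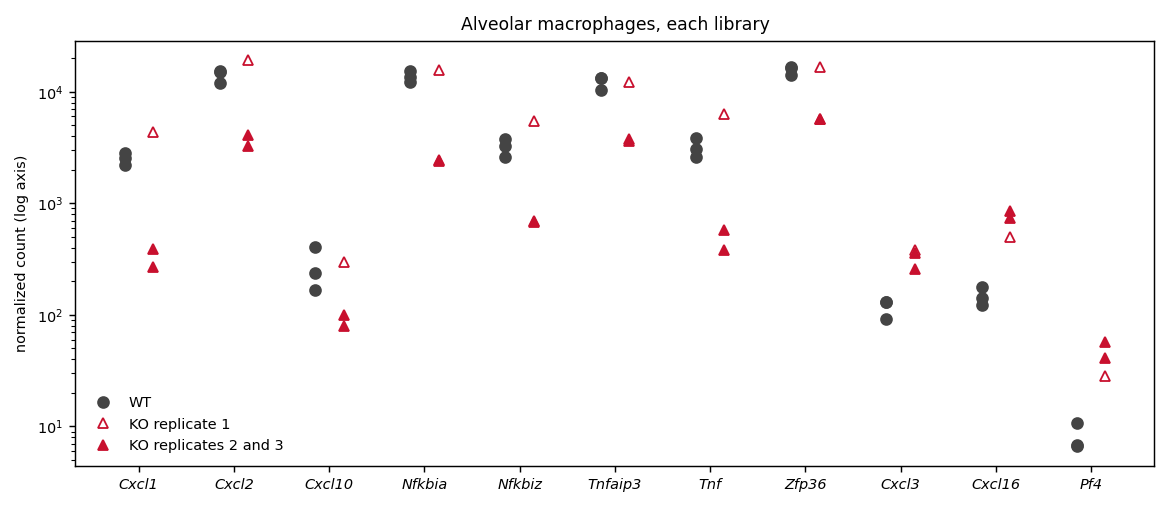
Normalized counts (log scale) of ligands and NF-kB response genes in the 3 WT (circles) and 3 KO (triangles) alveolar macrophage libraries, with KO replicate 1 as an open triangle. For Cxcl1, Cxcl2, Nfkbia, Nfkbiz and Tnf the open triangle sits above the WT circles and the filled ones below, whereas for Cxcl3, Cxcl16 and Pf4 all triangles sit above the circles.

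In the spleen none of the 9 ligands was called between genotypes. In CD8a DCs limma called 0 and found 0 at an unadjusted p under 0.05, and edgeR and DESeq2 called 0 each, where 5.13%, 4.03% and 6.26% of all genes were called. Of the 9, 4 did not overlap, as did 46.7% of all genes. Cxcl9 measured 964 and 1103 in WT and 1525 and 1391 in KO (0.50 ± 0.53, 95% interval -0.59 to 1.59), and Cxcl10 162 and 162 against 249 and 277 (0.70, -0.24 to 1.63). Cxcl2 measured 49.7 and 55.8 in WT and 26.1 and 25.2 in KO (-1.01, 95% interval -2.27 to 0.25). The 4th of these, Cxcl13, measured 13.7 and 11.2 against 5.58 and 3.60. The third Cxcr3 ligand, Cxcl11, overlapped, with 8.57 and 1.01 in WT and 14.9 and 7.21 in KO. Thus the share without overlap was near that of all genes. The 7 red pulp macrophage markers were all called lower in KO CD8a DCs, and their part here was not tested.

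In spleen CD11b DCs limma called 0 of the 9 ligands, with 2 at an unadjusted p under 0.05 (Cxcl10 and Cxcl11), and edgeR and DESeq2 called 0, with 1 each at an unadjusted p under 0.05. Of all genes they called 1.52%, 1.11% and 3.82%. The 4 genes without overlap, against 47.9% of all genes, were Cxcl2, Cxcl9, Cxcl10 and Cxcl11, each with its KO values above WT. Cxcl10 measured 93.3 and 120.2 in WT and 351 and 243 in KO, a difference of 1.46 ± 0.45 (95% interval 0.52 to 2.39, limma adjusted p = 0.119). Cxcl9 measured 87.9 and 115 in WT and 221 and 172 in KO (0.95, 95% interval -0.14 to 2.04). Cxcl11 rested on 1 and 3 reads in WT and 4 and 12 in KO. The Cxcl16 libraries overlapped in both spleen populations, with intervals from -0.67 to 0.50 in CD8a DCs and from -0.46 to 0.71 in CD11b DCs.

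In inflammatory DCs limma, edgeR and DESeq2 called 0 of the 9 ligands between genotypes, with 1, 2 and 2 at an unadjusted p under 0.05, and of all genes 3.37%, 3.37% and 5.25%. None was without overlap, compared with 20.9% of all genes. Cxcl16 measured 5673, 8459 and 6446 in WT libraries and 8299, 12400.1 and 10920.3 in KO libraries, 1 of which lay inside the WT range (0.62 ± 0.23, 95% interval 0.14 to 1.1, limma adjusted p = 0.175). With weights per library it was called (0.66, adjusted p = 0.0432), and over the alternatives adjusted p ranged from 0.0432 to 0.531. Cxcl3 measured 549, 253 and 244 in WT and 459, 402 and 689 in KO (0.63, 95% interval -0.10 to 1.36). Cxcl10 measured 372, 353 and 610 against 532, 588 and 753 (0.52, -0.25 to 1.28), and Cxcl9 164, 306 and 258 against 179, 491 and 694 (0.74, -0.15 to 1.63). For Cxcl3, Cxcl9 and Cxcl10 the upper bounds of these intervals lie below the differences found in lung CD11b DCs. Pf4, whose highest levels of the study were here, overlapped between genotypes, at 446 ± 36.2 in WT and 443 ± 53.3 in KO (SD, n = 3 each; -0.02, 95% interval -0.93 to 0.90).

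The KO effects were also compared between cell types by a test of the difference itself. Lung minus spleen CD11b DCs differed for Cxcl3 (4.06 ± 0.56, limma adjusted p = 8.79e-05), Cxcl9 (2.59, 0.0140), Cxcl10 (1.93, 0.0319) and Cxcl11 (3.63, 0.0252), all larger in the lung, where 5.86% of all genes were called larger and 6.6% smaller. Cxcl3 had no reads in the spleen, so this value depends on the pseudocount, and edgeR and DESeq2 called neither Cxcl3 nor Cxcl11 here. The Cxcl9 difference was lost without spleen WT replicate 2 (2.40, limma adjusted p = 0.0731) or spleen KO replicate 2 (2.41, 0.0702), and that of Cxcl11 without spleen WT replicate 2 (3.18, 0.127), spleen KO replicate 1 (3.04, 0.133) or lung WT replicate 1 (3.42, 0.0513) or 2 (3.41, 0.0529). That of Cxcl10 was lost without any 1 of spleen WT replicates 1 and 2, spleen KO replicate 2, lung WT replicates 2 and 3 and lung KO replicate 2 (1.66 to 2.11, limma adjusted p 0.0502 to 0.148). Without lung WT replicate 1, Cxcl16 was called (1.17, adjusted p = 0.0388). Inflammatory minus lung CD11b DCs differed for the same 4 genes, by -3.42, -2.79, -2.87 and -4.71 (limma adjusted p = 7.56e-05, 0.00345, 0.000724 and 0.00167), with 6.08% of all genes larger and 6.95% smaller in inflammatory DCs. Alveolar macrophages minus lung CD11b DCs differed for 7 ligands, with 10.2% of all genes larger and 6.6% smaller. The effect was smaller for Cxcl2 (-3.03, limma adjusted p = 0.00408), Cxcl3 (-2.57, 0.000873), Cxcl9 (-2.88, 0.00181), Cxcl10 (-4.30, 5.30e-06) and Cxcl11 (-5.01, 0.000610). It was larger for Cxcl16 (1.14, limma adjusted p = 0.0185) and Pf4 (2.17, 0.0183). The Cxcl11 difference was not called by edgeR or DESeq2. That of Cxcl16 was lost without lung WT replicate 1 or 2, alveolar macrophage WT replicate 3 or alveolar macrophage KO replicate 3 (0.91 to 1.01, limma adjusted p 0.0537 to 0.0608), and that of Pf4 without the last of these (1.93, 0.0541). Without KO alveolar macrophage replicate 1, Cxcl1 was called too (-3.44, adjusted p = 0.0147). Between both spleen populations limma called 0 of the 9, with 1 at an unadjusted p under 0.05, and edgeR and DESeq2 0 with 0, where 2.45%, 1.73% and 3.12% of all genes were called. The 3 comparisons that include lung CD11b DCs share its 6 libraries.

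Per kilobase of transcript, the balance between the summed Cxcl1, Cxcl2 and Cxcl3 and the summed Cxcl9, Cxcl10 and Cxcl11 set the organs apart. In the spleen the Cxcr3 ligands exceeded the neutrophil attractants, 10.1-fold and 8.28-fold in WT CD8a DCs, 32.6-fold and 26.6-fold in KO CD8a DCs, 3.96-fold and 3.06-fold in WT CD11b DCs and 5.75-fold and 5.56-fold in KO CD11b DCs. In every lung library the neutrophil attractants exceeded the Cxcr3 ligands. In lung CD11b DCs the WT ratios were 10.3, 13.5 and 4.12 and the KO ratios 3.10, 2.49 and 2.90, lower in each KO library. Cxcl10 made up 14.3% to 18.5% of the 9 genes' summed per-kilobase level in KO and 3.22% to 6.51% in WT. Alveolar macrophages had the highest ratios, 74.6, 44.2 and 83.6 in WT and 79.6, 45.1 and 40.8 in KO, which overlapped even though KO replicates 2 and 3 had lower levels on both axes. Inflammatory DCs lay between 6.17 and 15.0 in WT and 4.71 and 9.61 in KO. Cxcl2 was the largest part of the total in alveolar macrophages (73.8% to 81.5%) and Cxcl16 in the spleen (53.2% to 79.1%).

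**Figure D4:**
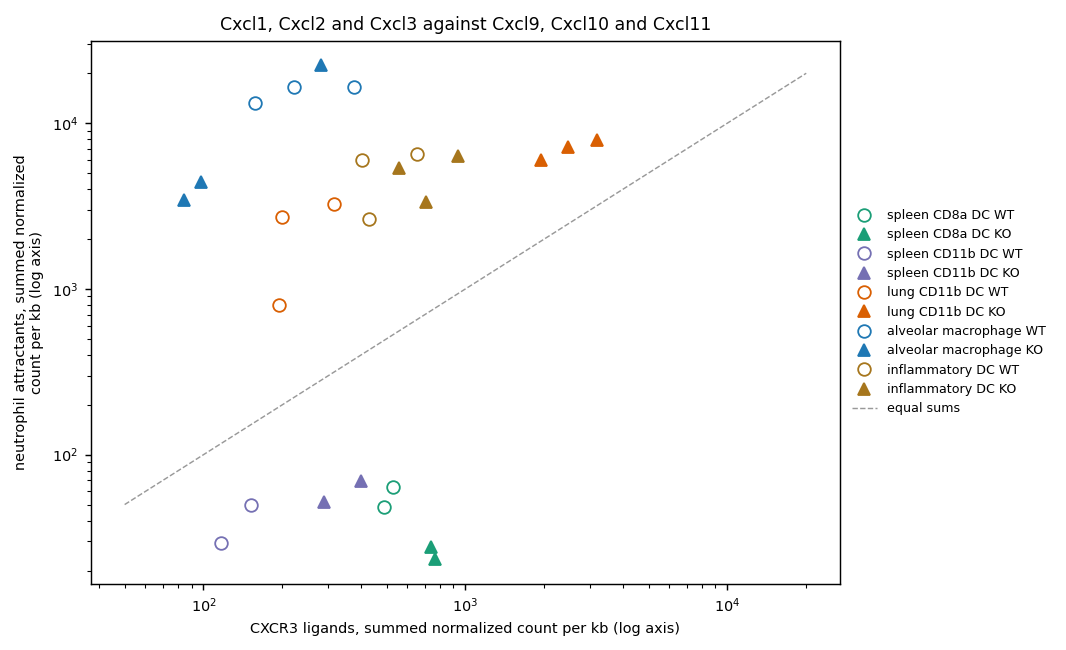
Summed per-kilobase normalized counts of Cxcl1, Cxcl2 and Cxcl3 (vertical, log scale) against those of Cxcl9, Cxcl10 and Cxcl11 (horizontal, log scale) in each library, with open circles for WT, filled triangles for KO and a dashed line where both sums are equal. Spleen libraries lie below the line and lung libraries above it, and KO lung CD11b libraries lie above and to the right of WT.

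The receptors of these ligands were mostly low in the sorted cells. Of 10 receptors listed, 7 passed the filter. In lung CD11b DCs 0 of the 7 were higher and 1 lower in KO, beside 12% and 14% of all genes. That 1 was Darc, the scavenging receptor of blood cells and vessels, at 27.1, 12.7 and 16.9 in WT and 5.81, 0 and 0.67 in KO (-3.08 ± 0.80, limma adjusted p = 0.00599). The 7 endothelial and stromal markers summed to 397 to 469 in WT and 706 to 904 in KO, but the sum does not describe each of them. The KO effect in lung minus spleen CD11b DCs was -4.05 for Col1a1 (limma adjusted p = 0.0413) and 1.93 for Kdr (0.162). The part of such cells in the Darc difference was not tested. In alveolar macrophages 3 receptors were higher in KO, where 10.5% of all genes were higher and 6.39% lower. Cxcr2, the receptor of Cxcl1, Cxcl2 and Cxcl3, measured 37.7, 59.6 and 40.1 in WT and 572, 489 and 339 in KO (3.32 ± 0.63, limma adjusted p = 0.000465). Its paralog Cxcr1 measured 35.4, 45.3 and 26.0 in WT and 694, 725 and 576 in KO (4.21 ± 0.53, 2.77e-06), and Cxcr6, the Cxcl16 receptor, 12.6, 9.93 and 9.76 against 47.8, 73.5 and 89.5 (2.56 ± 0.50, 0.000703). All 3 were above WT in each KO library, including KO replicate 1. Neutrophils, natural killer cells and T cells also carry such receptors. Neutrophil markers, Cxcr2 among them, summed to 1328 to 1416 in WT and 2247 to 2499 in KO alveolar macrophages. The natural killer list summed to 7.7 to 17.1 and 57.6 to 136. The T cell list summed to 3802 to 3957 in WT and 2631 to 3033 in KO, although 4 of its 6 tested genes were called higher and 0 lower. Their part in the receptor differences was not tested. In inflammatory DCs only Cxcr1 passed (2.28, limma adjusted p = 0.0158), where 3.37% of all genes were called.

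Enzymes that shed or trim chemokines changed in several groups. Mmp12, a macrophage protease that cleaves CXC ligands, rose in lung CD11b DCs (1.83 ± 0.17, limma adjusted p = 4.55e-08), inflammatory DCs (1.29, 0.000228) and alveolar macrophages, where it went from 136, 90.5 and 108 to 9466, 10165 and 10086 (6.48 ± 0.17, 6.57e-18). Dpp4, which trims and weakens the Cxcr3 ligands, fell by 1.23 in lung CD11b DCs (limma adjusted p = 0.000117) and by 1.38 in inflammatory DCs (0.000571). Adam10 was not called in lung CD11b DCs (-0.11), while Adam17 rose by 0.46 there (limma adjusted p = 0.000999) and by 0.28 in alveolar macrophages (0.0446). In all, 3 of the 6 proteases were higher and 1 lower in KO lung CD11b DCs, where 12% and 14% of all genes were, and 3 higher and 0 lower in KO alveolar macrophages, where 10.5% and 6.39% were.

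Of the 20 tested genes of interferon receptor, STAT and IRF signalling, 11 were higher and 3 lower in KO lung CD11b DCs, beside 12% and 14% of all genes. Usp18, an interferon-induced brake on its own receptor, rose by 3.29 ± 0.26 (limma adjusted p = 5.67e-09), and Irf7, the amplifier of type I interferon, by 3.03 ± 0.27 (2.17e-08). Stat2 rose by 1.67 (limma adjusted p = 1.31e-06). In KO alveolar macrophages 8 of the 20 were higher and 2 lower, beside 10.5% and 6.39% of all genes. There Usp18 measured 19.4, 17.7 and 10.8 in WT and 175, 421 and 506 in KO (4.34, limma adjusted p = 1.77e-11), and Irf7 70.8, 69.5 and 74.8 in WT and 411, 1126 and 1340.1 in KO (3.56, 1.06e-09). So these genes were above WT in every KO alveolar macrophage library, whereas no Cxcr3 ligand was called higher there and Cxcl11 stayed at 0 or 1 read. In KO inflammatory DCs Irf1, an interferon-induced transcription factor, was higher (0.82, limma adjusted p = 0.0141), where limma called 3.37% of all genes.

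Of the 30 tested genes of NF-kB, Toll-like receptor and IL-1 signalling, 6 were higher and 3 lower in KO lung CD11b DCs. Among all genes, 12% were higher and 14% lower. Those called included the adaptor Myd88 (0.67, limma adjusted p = 0.000255), the IL-1 receptor Il1r1 (-2.30, 8.38e-05) and Tnfaip3 (-1.41, 0.0103). The AU-rich element list had 0 of 4 higher and 3 lower there: Zfp36 fell by 1.04 ± 0.25 (limma adjusted p = 0.00380), Zfp36l2 by 0.58 (0.00109) and Zfp36l1 by 0.52 (0.0197). In KO alveolar macrophages 3 of the 30 NF-kB list genes were higher and 6 lower, beside 10.5% and 6.39% of all genes, led by Irak2 (1.17, limma adjusted p = 5.18e-07) and Tlr2 (-1.22, 9.48e-06), and 1 of 4 AU-rich element genes was higher (Zfp36l1, 0.68, 0.00379) and 2 lower. In KO spleen CD11b DCs Zfp36l1 rose by 0.99 (limma adjusted p = 0.00924), and Zfp36l2 by 1.42. In inflammatory DCs 0 of both lists were called by limma.

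Across the 10 group means, which share libraries between genes, Pearson's r on the log2 scale was 0.98 for Cxcl1 and Cxcl2, 0.96 for Cxcl2 and Cxcl3, 0.93 for Cxcl1 and Cxcl3, 0.84 for Cxcl10 and Cxcl11, 0.69 for Cxcl9 and Cxcl11, 0.35 for Cxcl9 and Cxcl10 and -0.58 for Cxcl1 and Cxcl9. These are descriptions over 10 points that fall into spleen and lung. Members with a highest group mean of at least 50 were set against other genes with a mean over groups of at least 10. Gene models and Riken clones were left out. The 3 genes with the most similar pattern were Lrrc8d, Dagla and Lmna for Cxcl1 (highest r 0.991) and Usp2, Ski and Vim for Cxcl2 (0.988). They were Clec4d, Lhfpl2 and Cyth1 for Cxcl3 (0.986) and Psmb1, Htt and Htr7 for Cxcl9 (0.970). For Cxcl10 they were Pgs1, Wash and Ascc3 (0.930), for Cxcl11 Kansl3, Ndrg1 and Rnf31 (0.940) and for Cxcl13 Sparc, Slc27a3 and Bgn (0.946). Those nearest Cxcl16 were Kcnn4, Sestd1 and Cnn3 (0.986), and those nearest Pf4 were Sphk1, C3ar1 and Ccl12 (0.988).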

How the data were processed

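The submitters' processing notes name STAR 2.3.1s, HTSeq, DESeq2 1.10.1 and mm10; the annotation and the counting by strand are not given in the sources used here. What the authors deposited is a signal, the DESeq2-normalized count per gene symbol in 26 libraries. Size factors (0.754 to 1.48) were recovered from the steps between values, and 100% came out as whole reads (tolerance 1e-06). Genes with at least 10 normalized counts in 2 libraries (13311) were fitted with limma 3.58.1 (R 4.3.3) on log2(value + 1), with 10 group means, a trended prior and Benjamini-Hochberg adjustment within each comparison. Alternatives were pseudocounts of 0.25 and 8, no filter, a filter of 50, sample weights, TMM scaling, edgeR 4.0.16 and DESeq2 1.42.0 on the recovered reads, only the compared groups, and each library left out. The term for lung CD11b libraries with fewer detected genes was chosen after seeing the data. Scripts were tested on simulated data.

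The members and all lists were chosen with earlier results of these data known. Named beyond the members are up to 4 called genes per list and comparison with the smallest p. Also named are receptors and proteases with their level and the 3 most correlated genes per member. Nfkbiz, Tnf, Tnfaip3, Zfp36, Mtor, Col1a1 and Kdr were chosen after their values were seen. Per-kilobase levels used principal transcripts of GENCODE M21, and promoters came from RefSeq. Intervals of read ratios are exact 95% intervals. Results for 2 genes of these lists are not reported here.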

Additional observations from a re-analysis of the deposited data

Results flagged for a closer look

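The KO effect of several ligands differed between cell types by a test of the difference itself (limma, log2 scale). Lung minus spleen CD11b DCs gave 4.06 for Cxcl3, 2.59 for Cxcl9, 1.93 for Cxcl10 and 3.63 for Cxcl11. Alveolar macrophages minus lung CD11b DCs gave -3.03 for Cxcl2, -2.57 for Cxcl3, -2.88 for Cxcl9, -4.30 for Cxcl10, -5.01 for Cxcl11, 1.14 for Cxcl16 and 2.17 for Pf4. Inflammatory minus lung CD11b DCs gave -3.42 for Cxcl3, -2.79 for Cxcl9, -2.87 for Cxcl10 and -4.71 for Cxcl11. All 3 comparisons share the lung CD11b libraries, so they are not independent of each other.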

How the results depend on the processing

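Over 1890 settings of single ligands, 1805 stayed on the same side of the threshold, 61 lost a call and 24 gained one. The sign differed in 51 settings, over 21 results, 0 of them called in either fit. Leaving out 1 library at a time, the number of ligands called between genotypes was 5 to 6 in lung CD11b DCs, 3 to 6 in alveolar macrophages and 0 to 0 in the spleen and inflammatory DCs. Sample weights gave 6 in alveolar macrophages and 1 in inflammatory DCs. For WT spleen CD8a against CD11b DCs the range with 1 library left out was 1 to 2. For the lung minus spleen KO effect it was 1 to 4, with 2 by edgeR, 2 by DESeq2 and 1 with only the compared groups. Those ranges were 5 to 8 for alveolar macrophages minus lung CD11b DCs, 4 to 4 for inflammatory minus lung CD11b DCs, and in WT 6 to 7, 6 to 8 and 3 to 6 for alveolar macrophages against lung CD11b DCs, lung against spleen and inflammatory against lung CD11b DCs. In lung CD11b DCs, the Cxcl2 and Cxcl16 calls were lost with sample weights (1.42 and 0.82) or only the compared groups (1.89 and 1.08), and Cxcl13 was called lower with a pseudocount of 8 (-1.16). Causes were not tested. Over all genes, calls between genotypes went from 3471 to 1897 with sample weights and 856 with only the compared groups in lung CD11b DCs, from 2247 to 4509 and 3863 in alveolar macrophages, from 448 to 843 and 0 in inflammatory DCs, from 202 to 652 and 0 (DESeq2 361) in spleen CD11b DCs, and from 683 to 0 with only the compared groups in spleen CD8a DCs. Without 1 library they were as low as 29 in spleen CD11b DCs and 208 in inflammatory DCs. Spleen levels of Cxcl1, Cxcl3, Cxcl11, Cxcl13 and Pf4 rest on at most 16 reads per library. No paired analysis was run because the labels give groups no shared replicate numbers. In KO spleen the Y-linked sum and the X-linked gene Xist were alike by replicate in both populations. Replicate 1 had 977 and 3620 in CD8a DCs and 932 and 3092 in CD11b DCs. Replicate 2 had 3049 and 12.0 in CD8a DCs and 3295 and 21.4 in CD11b DCs. Whether these libraries share mice is not stated.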
